A study of Macaca fascicularis with 20 samples.

Results

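MicroRNA levels in the germinal zones of area 17 were compared with those of area 18 in the fetal visual cortex of the crab-eating macaque. The comparison used 10 of the 20 samples that the labels name, chosen by their labelled area and zone: 6 libraries of area 17 and 4 of area 18. Area 17 was represented by the ventricular zone (VZ_17) and by the outer subventricular zone (OSVZ) cut as an inner, apical piece (OSVZ_17int) and an outer, basal piece (OSVZ_17ext). Area 18 was represented by VZ_18 and by an OSVZ that the labels do not divide (OSVZ_18). Every region was sampled once in each of 2 sets, set 1 at embryonic day 80 and set 2 at embryonic day 79. No treatment or genetic change is named. The pieces were cut with a UV laser, and the labels do not say if 1 animal gave all regions of a set, so the p-values rest on a spread between libraries that can be partly technical. Because the pieces hold mixed cells, fewer cells of a type and less RNA per cell cannot be told apart.

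Area 17 becomes the primary visual cortex and area 18 the adjoining secondary visual area. Radial glia divide along the ventricle in the VZ, and basal radial glia and intermediate progenitors divide in the OSVZ, which is enlarged in primates and supplies neurons of the upper layers. At mid-gestation, progenitors below the future area 17 are known to cycle faster and to produce more neurons than those below area 18. MicroRNAs are short RNAs that repress messenger RNAs. Several families of them act on the cell cycle: the miR-17 clusters favour proliferation, the miR-15/16, miR-34 and let-7 families restrain it, and miR-221 and miR-222 repress the cyclin-dependent kinase inhibitor p27. A hairpin precursor gives a 5p and a 3p arm, and each arm was a feature of its own here.

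No microRNA arm passed the test for a difference between areas across both germinal zones. Of 724 arms tested, 0 were called at an adjusted p under 0.05 (0%), with the edgeR quasi-likelihood test adjusted by the Benjamini-Hochberg method over all 724, and the smallest adjusted p was 0.998. At an unadjusted p under 0.05 there were 24 arms (3.31% of those tested), 1 higher (0.138%) and 23 lower (3.18%) in area 17. DESeq2 with the same design called 1 arm, the scarce miR-922-3p, lower in area 17 by 5.30 ± 1.23 (SE) on the log2 scale with an adjusted p of 0.0124. The median difference over all 724 arms, area 17 minus area 18, was -0.04 on the log2 scale, with 343 arms above 0 and 381 below. With library totals as the scale in place of TMM this median was -0.39, so a small negative value under one scaling can be a positive value under the other.

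**Figure D1:**
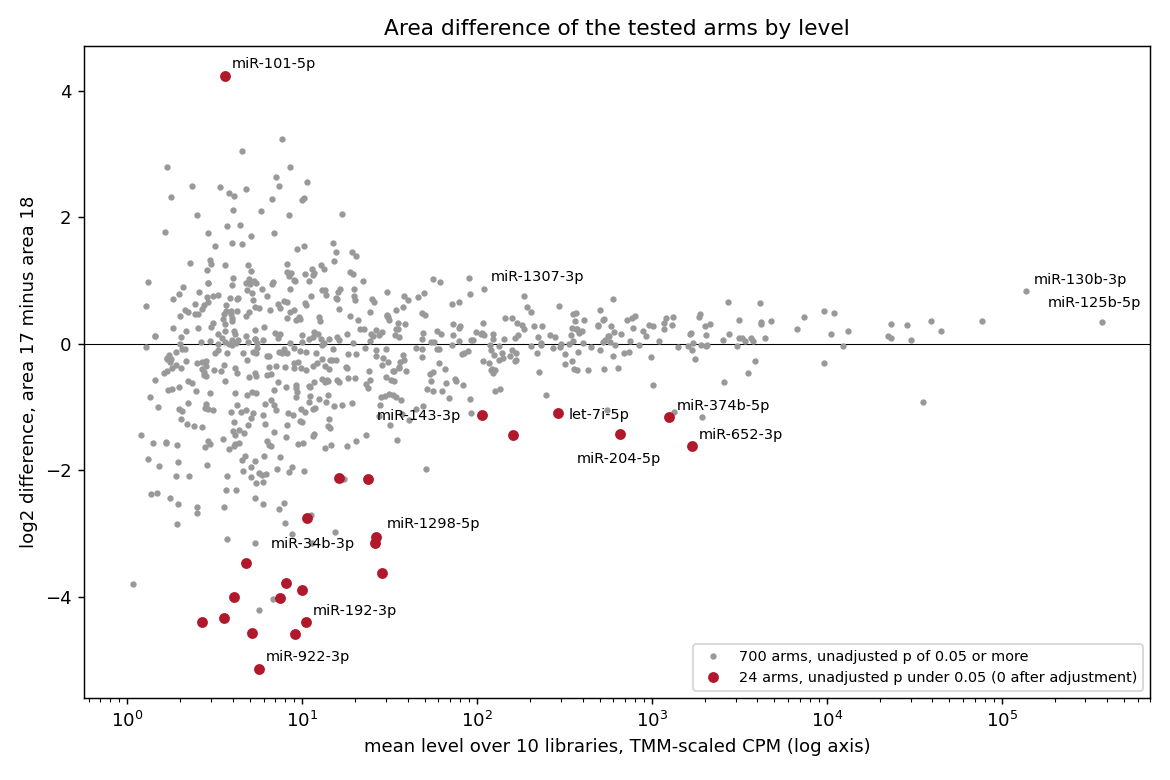
Difference between areas against level, 1 point per tested arm: the x axis is mean CPM (log scale) over the 10 libraries and the y axis is the log2 difference, area 17 minus area 18. The differences spread widely among scarce arms and narrow with level, and no point is called after adjustment.

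The depth of these libraries ran from 3603478 to 9517217 counts over the 1656 arms of names listed in both sets. Levels are counts scaled to a common total (CPM) by the TMM method, whose factors ran from 0.547 to 1.41. The 3p arm of miR-130b took 10.1% to 25.5% of the counts in set 1 and 0.270% to 0.440% in set 2, and miR-125b-5p took 26.8% to 38.9%. In the fit that tested area, set 2 differed from set 1 in 53 arms (7.32%), 21 higher (2.9%) and 32 lower (4.42%), and OSVZ differed from VZ in 0 of 724 (0%). Over the 395 arms whose mean level was 10 CPM or more, the set took a median of 15.8% of an arm's variance, the zone 7.59% and the area 4.42%. A median of 54.96% was left over, which also holds any sublayer difference and any area difference particular to a zone or set. Area was the largest of these 3 terms in 81 of the 395 arms, zone in 118 and set in the rest.

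**Figure D2:**
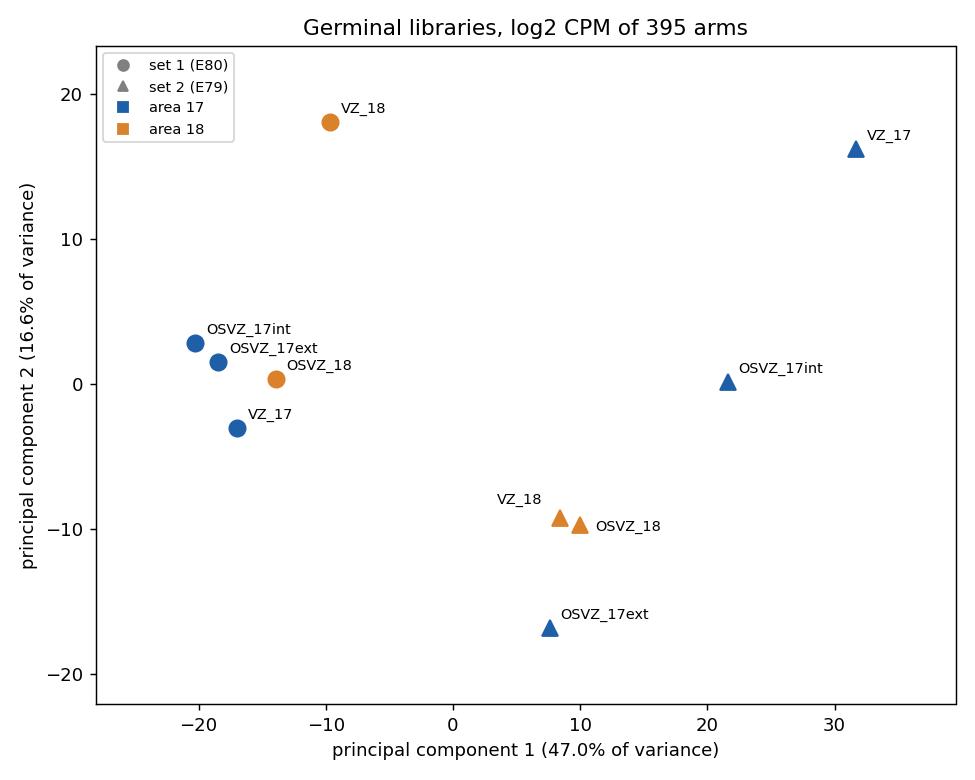
The 10 libraries by their first 2 principal components of log2 CPM over 395 arms, which hold 47.0% (x axis) and 16.6% (y axis) of the variance. Set 1 lies left of 0 and set 2 right of it on the x axis, the areas do not form separate clouds, and VZ_17 of set 2 and VZ_18 of set 1 lie highest on the y axis.

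Both VZ libraries that stand apart are part of the comparison. VZ_17 of set 2 had a median correlation of 0.736 with the other 9 libraries and was the lowest of the 10 in 92 of the 395 arms and the highest in 74. VZ_18 of set 1 had a median correlation of 0.816 and was the highest in 63 arms, in 9 of them by more than 4 times the next library. For the other 8 libraries this correlation ran from 0.821 to 0.889. Without both of them, 0 arms were called across the germinal zones and 15 had an unadjusted p under 0.05.

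Markers of the zones were compared with 4 libraries of the cortical plate (CP), which holds young neurons, on a scale computed over all 14 libraries. CPM values on it differ somewhat from those on the scale of the 10 germinal libraries used elsewhere. MiR-92b-3p, a marker of neural progenitors, ran from 12307 to 65923 CPM in the 10 germinal libraries against 441 to 981 CPM in the CP. MiR-138-5p, a neuronal microRNA, ran from 172 to 565 CPM in the germinal libraries and from 1833 to 5756 CPM in the CP. MiR-137-3p, another neuronal microRNA, ran from 1.17 to 68.2 CPM and from 411 to 1280 CPM. MiR-9-5p, which is made in progenitors and in some neurons, did not separate the zones: it ran from 3426 to 74407 CPM with a median of 34892 CPM in the germinal libraries, and from 24933 to 107726 CPM with a median of 52044 CPM in the CP.

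Among arms of at least 10 CPM, miR-204-5p had the smallest p of all those lower in area 17. This microRNA is abundant in choroid plexus and pigment epithelium and is also made in neural tissue. In set 1 it was measured at 195 CPM in VZ_17 and 224 CPM in VZ_18, and at 151 CPM in OSVZ_17int and 657 CPM in OSVZ_17ext against 904 CPM in OSVZ_18. In set 2 the values were 309 CPM in VZ_17 and 2016 CPM in VZ_18, and 297 CPM in OSVZ_17int and 737 CPM in OSVZ_17ext against 1055 CPM in OSVZ_18. Each area 17 library was below the area 18 library of its zone and set, in 6 of 6 pairs, but the ranges of the areas overlapped because VZ_18 of set 1 was low. The difference was -1.43 ± 0.48 (SE) on the log2 scale, with an unadjusted p of 0.00841 and an adjusted p of 0.998 by the edgeR test. Without VZ_18 of set 2 it was -0.80. Its close relative miR-211-5p is listed with it as a marker of choroid plexus or pigment epithelium. That arm ran from 15.95 to 81.0 CPM in area 17 and from 23.5 to 103 CPM in area 18, a difference of -0.43 ± 0.57.

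MiR-204 and miR-211 are the listed markers of choroid plexus and pigment epithelium. The summed level of their 4 arms ran from 173 to 759 CPM in area 17 and from 327 to 2066 CPM in area 18. Only the 5p arms could be tested, and neither 5p arm was at 0 in any of the 10 libraries. VZ_18 of set 2 held the highest sum and OSVZ_18 of the same set the next at 1082 CPM, while VZ_18 of set 1 was at 327 CPM. MiR-1298-5p, whose gene lies in an intron of the serotonin receptor gene HTR2C, a gene that choroid plexus expresses strongly, was measured at 200 CPM in VZ_18 of set 2 and 34.8 CPM in OSVZ_18 of set 2. In the other 8 libraries it ran from 0 to 11.2 CPM. All 6 area 17 libraries were below their area 18 partner, the difference was -3.05 ± 1.06, and the adjusted p was 0.998 by the edgeR test. The part of choroid plexus tissue in either difference was not tested. As a set chosen after values had been seen, the 7 tested arms of the 12 listed for HTR2C introns had a median of 0.08, with 4 above 0 and 3 below.

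**Figure D3:**
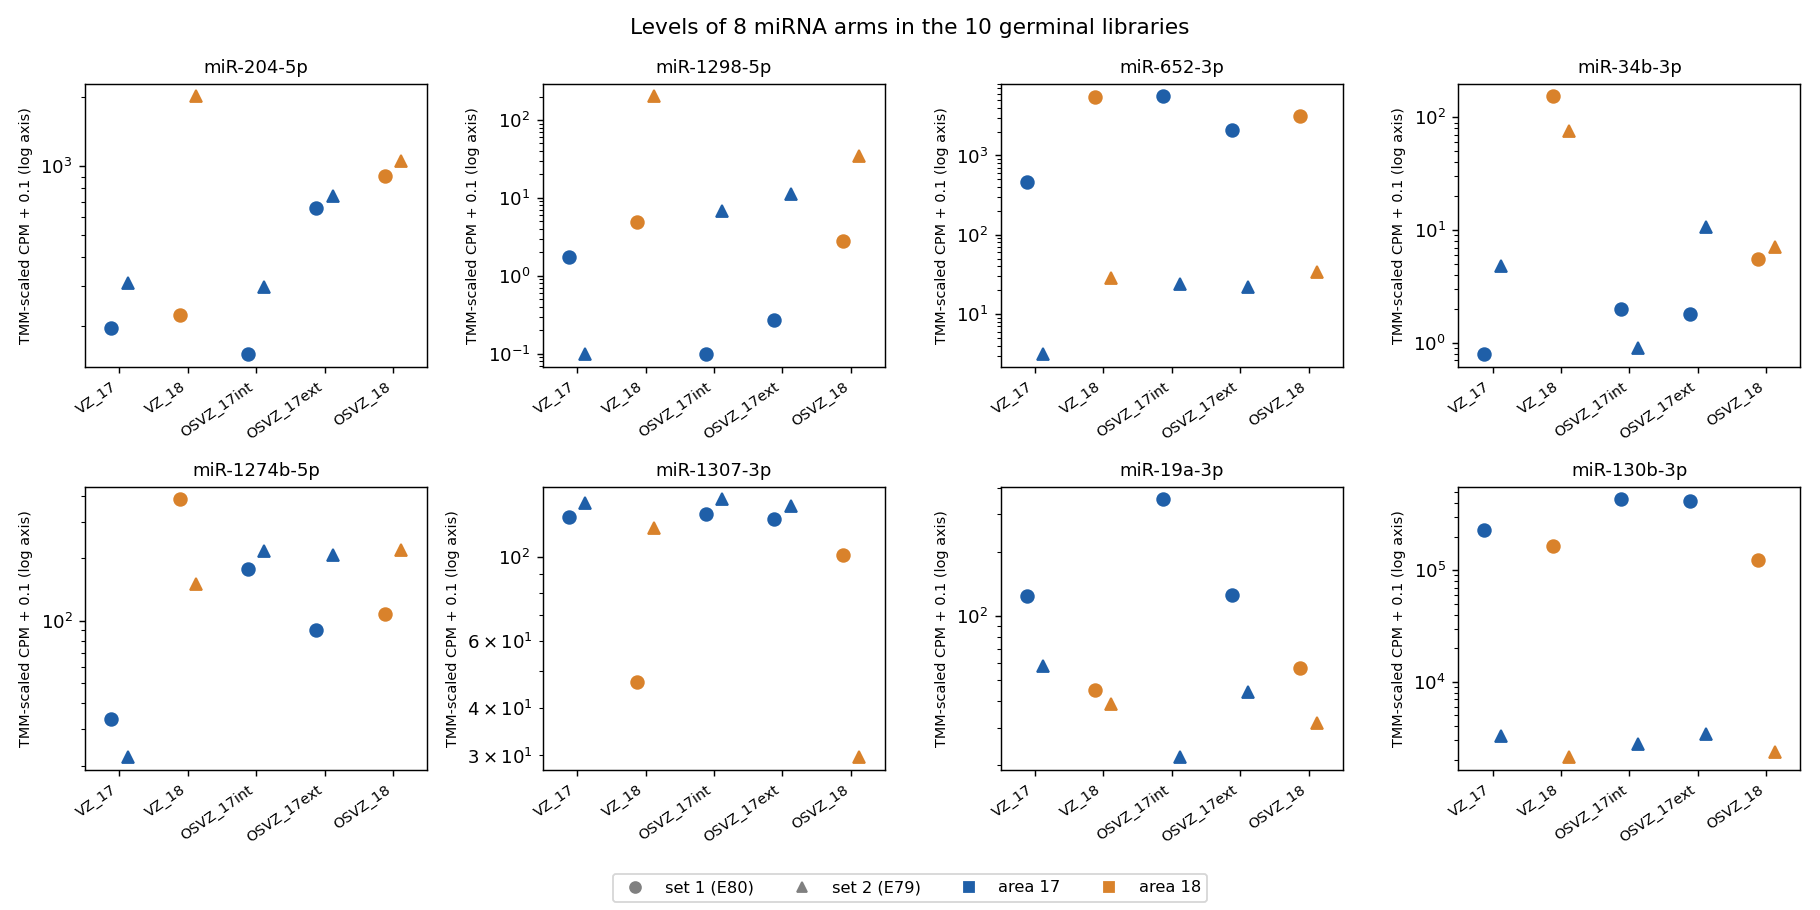
Levels of 8 arms in the 10 libraries, as TMM-scaled CPM with 0.1 added, on a log axis, by region, with blue for area 17, orange for area 18, circles for set 1 and triangles for set 2. MiR-204-5p and miR-1298-5p reach their highest values in area 18, miR-652-3p separates by set far more than by area, and miR-1307-3p lies in a narrow band from 125.7 to 141.1 CPM in area 17.

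Among the lower arms of at least 10 CPM, miR-652-3p had the smallest p after miR-204-5p and miR-1298-5p. Its levels differed more between sets than between areas. In set 1 it was measured at 464 CPM in VZ_17 and 5446 CPM in VZ_18, and at 5543 CPM in OSVZ_17int, 2125 CPM in OSVZ_17ext and 3134 CPM in OSVZ_18. In set 2 it was at 3.06 CPM in VZ_17 and 28.1 CPM in VZ_18, and at 23.6 CPM, 22.2 CPM and 34.1 CPM in the same 3 OSVZ regions. Both VZ pairs were lower in area 17, and the 4 OSVZ pairs lay on both sides of 0, from -0.61 to 0.82 on the log2 scale. The difference over both zones was -1.62 ± 0.58 with an adjusted p of 0.998 by the edgeR test.

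Within the VZ, miR-652-3p was the 1 arm of 724 that was called (0.138%). It was lower in VZ_17 by -3.39 ± 0.58 (SE) on the log2 scale, with a 95% interval from -4.60 to -2.17 and an adjusted p of 0.00982 by the edgeR quasi-likelihood test with Benjamini-Hochberg adjustment. The pair in set 1 gave -3.55 and the pair in set 2 gave -3.01. Its difference in the OSVZ was -0.18 ± 0.45, with an interval from -1.12 to 0.77. The difference between the zones was itself tested, at -3.21 ± 0.73 with an adjusted p of 0.244, and was not called. The call in the VZ was lost without VZ_17 of set 2 (adjusted p = 0.105), without VZ_18 of set 1 (adjusted p = 0.252) and without OSVZ_17int of set 2 (adjusted p = 0.0565), with edgeR values from -3.38 to -2.82. Without both VZ libraries that stand apart, the value was -2.59. That fit holds 1 VZ library per area, each from another set. No VZ pair of a set remains there, so the value rests on the set difference as fitted with the OSVZ libraries. Without the set as a block the VZ value was -3.55 with an adjusted p of 0.913 by the edgeR test. DESeq2 called 15 arms in the VZ, 14 of them lower in area 17, miR-652-3p among them at -3.32 ± 0.61 (adjusted p = 2.33e-05), and limma voom called 0.

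MiR-1274b-5p came next in the VZ. Its name was given to a microRNA and has since been assigned to a fragment of a transfer RNA. It was measured at 33.6 CPM in VZ_17 and 383 CPM in VZ_18 of set 1, and at 22.0 CPM and 150 CPM in set 2. The VZ difference was -3.27 ± 0.69 with an adjusted p of 0.0541 by the edgeR test, just outside the threshold, and all 6 OSVZ libraries lay between 90.2 and 220 CPM, a difference of 0.08 ± 0.55. It was called in the VZ in 5 of 24 alternatives, DESeq2 among them (adjusted p = 0.0018). The value was -1.82 without VZ_18 of set 1, where 1 VZ_18 library remains. It was -0.92 without VZ_17 of set 2 and VZ_18 of set 1 together, where no VZ pair of a set remains. MiR-652-3p and miR-1274b-5p thus had the same arrangement, with both VZ_17 libraries the lowest of their set.

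In the VZ, miR-3164-5p gave -2.92 ± 0.79 and let-7f-3p gave -2.32 ± 0.67, with adjusted p of 0.293 and 0.378 by the edgeR test. DESeq2 called these 2 arms lower, with adjusted p of 0.0313 and 0.0111. MiR-3164-5p ran from 1676 to 5221 CPM in set 1 and from 0 to 5.68 CPM in set 2. Large VZ values were also seen for miR-34b-3p and miR-34c-5p. Both are cut from 1 primary transcript and are known from multiciliated cells, such as ependyma and choroid plexus epithelium, as well as from the p53 response. MiR-34b-3p was measured at 0.700 CPM in VZ_17 and 153.1 CPM in VZ_18 of set 1, and at 4.66 CPM and 75.4 CPM in set 2. The OSVZ libraries ran from 0.796 to 10.5 CPM. MiR-34c-5p was at 0.933 CPM in VZ_17 and 50.0 CPM in VZ_18 of set 1, and at 1.02 CPM and 68.3 CPM in set 2, and ran from 0 to 15.4 CPM in the OSVZ. Both VZ_18 libraries were thus above every other library for both arms. The VZ difference was -5.94 ± 1.58 for miR-34b-3p, with an adjusted p of 0.293 by the edgeR test, and -5.87 ± 2.12 for miR-34c-5p, with an adjusted p of 0.645. DESeq2 called both in the VZ, with adjusted p of 0.00017 and 0.0136. Both arms rested on few counts in area 17. Of the 2 tested arms listed for choroid plexus and pigment epithelium, miR-204-5p was highest in VZ_18 of set 2. It was at 2016 CPM there against 224 CPM in VZ_18 of set 1. MiR-211-5p was highest in VZ_18 of set 1, at 103 CPM against 46.7 CPM in VZ_18 of set 2. A part of ciliated cells in these values was not tested.

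A further member, miR-34a-5p, comes from another gene and was far more abundant in set 1 than in set 2. It ran from 24183 to 105329 CPM in set 1 and from 105 to 118 CPM in set 2, with a difference between areas of 0.32 ± 0.43. The other arm of its hairpin, miR-34a-3p, was at 0.700 CPM in VZ_17 and 167 CPM in VZ_18 of set 1. In set 2 the order was reversed, at 7.58 CPM and 2.76 CPM. Its VZ difference was -5.42 ± 1.94, with an adjusted p of 0.645 by the edgeR test. DESeq2 called miR-34a-3p lower in the VZ (adjusted p = 0.0111), a value that rests on VZ_18 of set 1. Over the 7 tested arms of the miR-34 and miR-449 family, 1 was above 0 and 6 were below, 0 were called, and the median was -1.13 beside -0.04 for all tested arms. Within the VZ the family median was -2.96 beside -0.18 for all arms, and in the OSVZ it was -0.55 beside 0.07. The other 5 listed arms of the family were removed by the filter on low counts.

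Within the OSVZ 0 of 724 arms were called (0%), 4 had an unadjusted p under 0.05 and the smallest adjusted p was 0.995. The smallest p of an arm of at least 10 CPM was that of miR-193a-5p, which was measured at 58.1 CPM in OSVZ_17int and 34.5 CPM in OSVZ_17ext of set 1 against 158 CPM in OSVZ_18. In set 2 it was at 46.3 CPM and 81.0 CPM against 159 CPM. All 4 area 17 libraries of the OSVZ were below both of area 18, at -1.54 ± 0.55, while VZ_17 and VZ_18 differed by 0.12 ± 0.67. For the difference between zones itself, 0 arms were called by edgeR (0%) and 26 had an unadjusted p under 0.05. DESeq2 called 2, miR-652-3p and miR-576-3p.

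Of arms of at least 10 CPM that were higher in area 17, none reached an unadjusted p under 0.05, and 13 of those that were lower did. The smallest p among the higher arms was that of miR-342-5p, with an unadjusted p of 0.053 by the edgeR test and a difference of 0.76 ± 0.37. It is known from myeloid cells as well as from neural tissue, and ran from 113 to 294 CPM in area 17 and from 85.2 to 191 CPM in area 18. MiR-1307-3p was measured from 125.7 to 141.1 CPM in the 6 area 17 libraries, with a mean of 132.8 ± 6.35 CPM (SD, n = 6). In area 18 it was at 46.7 CPM and 118 CPM in VZ_18 of sets 1 and 2, and at 101 CPM and 29.7 CPM in OSVZ_18, a mean of 73.9 ± 42.4 CPM (SD, n = 4). Every area 17 library was above every area 18 library, and the difference was 0.87 ± 0.44 with an adjusted p of 0.998 by the edgeR test. Such a full separation was seen in 3 of the 724 arms (0.414%), 2 higher in area 17 (0.276%) and 1 lower (0.138%). The others were miR-101-5p, higher, and miR-922-3p, lower, which both have means under 10 CPM. These last 2 are named for their count and were chosen after their values were seen. For miR-922-3p the highest area 17 value was 2.573 CPM and the lowest area 18 value 2.580 CPM. Its level was 36.8 CPM in VZ_18 of set 1 and at most 8.29 CPM in the other area 18 libraries.

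MiR-130b-3p, the second most abundant arm, was higher in area 17 in all 6 pairs, with a difference of 0.84 ± 0.43 and an adjusted p of 0.998 by the edgeR test. In set 1 it was measured at 228099 CPM in VZ_17 and 164934 CPM in VZ_18, and at 431115 CPM in OSVZ_17int and 415752 CPM in OSVZ_17ext against 122479 CPM in OSVZ_18. In set 2 its 5 libraries lay between 2131 and 3380 CPM. Its family member miR-130a-3p, with steadier levels, was also higher in all 6 pairs, from 6335 to 12027 CPM in area 17 and from 4788 to 7355 CPM in area 18, at 0.42 ± 0.32.

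One direction in all 6 pairs was seen in 22 of 724 arms (3.04%), 8 higher (1.1%) and 14 lower (1.93%) in area 17. The pairs are not independent, since the inner and outer OSVZ of a set were paired with the same OSVZ_18 library. Of the 22, 11 had a mean level of 10 CPM or more. The 5 higher were miR-708-5p, miR-130b-3p, miR-130a-3p, miR-28-3p and miR-1307-3p, and the 6 lower were miR-204-5p, miR-628-5p, miR-1298-5p, miR-193b-3p, miR-582-3p and miR-654-3p. The means of the 2 sets had the same sign in 165 of the 395 arms and not in the other 230. Within a pair, the SD of log2 differences over these arms was 1.83 and 2.09 in the VZ and ran from 1.004 to 1.362 in the OSVZ.

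The precision of these data was set by the spread between libraries. Over the 395 arms the median SE was 0.56 on the log2 scale, the 95% interval lay within 1 log2 unit of 0 for 80 arms and within 2 units for 234, and 62 arms differed by over 1 unit (19 higher, 43 lower in area 17). Abundant arms were measured more closely. The 64 arms at a mean of 1000 CPM or more hold 95.4% of the counts, their median SE was 0.36, and 28 of them had an interval within 1 unit of 0. Their differences ran from -1.62 for miR-652-3p to 0.84 for miR-130b-3p.

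**Figure D4:**
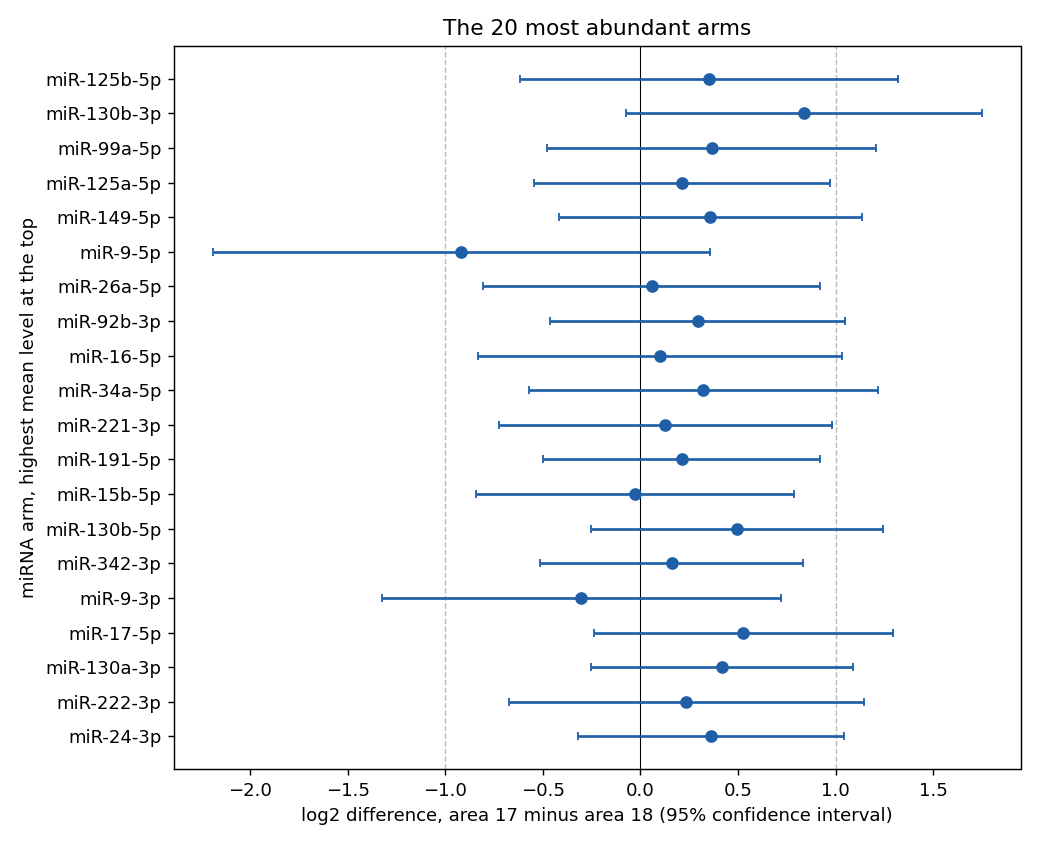
Differences between areas for the 20 most abundant arms, area 17 minus area 18 on the log2 scale, as the estimate with its 95% interval, ordered by mean level. All 20 intervals include 0, 6 of them lie within 1 unit of 0, and 17 of the 20 estimates are above 0.

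Among the 20 most abundant arms, 17 were above 0, with SE from 0.32 to 0.61. With library totals as the scale, the estimate for miR-92b-3p was below 0, as was the median of all arms. MiR-125b-5p, which is known to promote the differentiation of neural progenitors, ran from 276719 to 659949 CPM in area 17 and from 202874 to 467311 CPM in area 18, a difference of 0.35 ± 0.46. MiR-125a-5p, of the same family, gave 0.21 ± 0.36. MiR-99a-5p, whose family shares gene clusters with miR-125, gave 0.36 ± 0.40. MiR-149-5p, at 30540 to 62840 CPM in area 17 and 24567 to 45446 CPM in area 18, gave 0.36 ± 0.37. MiR-9-5p, which acts on the timing of neurogenesis, was the one that differed most, and its libraries did not order by area. It was at 63838 CPM in VZ_17 and 32985 CPM in VZ_18 of set 1 but at 3543 CPM and 38473 CPM in set 2, and at 9214 CPM and 22480 CPM in OSVZ_17int and OSVZ_17ext of set 2 against 55163 CPM in OSVZ_18. The difference over both sets was -0.92 ± 0.61, and it was 0.45 in set 1 alone and -2.54 in set 2 alone, where it was called with an adjusted p of 0.0205 by the edgeR test. Set 2 alone gave 4 called arms, all lower in area 17: miR-9-5p, miR-374b-5p, miR-30c-5p and let-7i-5p. All 4 had their lowest value in VZ_17 of set 2, a library that stands apart. The values there were 3543 CPM, 44.4 CPM, 88.9 CPM and 40.4 CPM. Set 1 alone gave 0.

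With both sets in the fit, no progenitor marker was called between areas. MiR-9-5p, which is listed with these markers, was called lower in area 17 in set 2 alone, where its lowest library was VZ_17. MiR-92b-3p was measured at 56559 CPM and 49983 CPM in VZ_17 of sets 1 and 2 and at 25476 CPM and 33050 CPM in VZ_18. In the OSVZ it ran from 13963 to 22624 CPM in area 17 and was at 24647 CPM and 17721 CPM in area 18. The area difference was 0.29 ± 0.36 with an interval from -0.46 to 1.05, and in the VZ, where both VZ_17 libraries were above both VZ_18 libraries, it was 0.87 ± 0.57 with an adjusted p of 0.799 by the edgeR test. Of the 14 tested arms of progenitor and radial glia microRNAs, 6 were above 0 and 8 below, with a median of -0.16, 0 called and 1 at an unadjusted p under 0.05.

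Of the microRNAs that act on the cell cycle, the miR-17 clusters, which hold miR-17, miR-20b, miR-19a, miR-106b, miR-93, miR-25 and others, were above 0 in 13 of 19 tested arms. Their median was 0.23 beside -0.04 for all arms, 0 were called (0% of all arms tested), and the median was -0.18 with library totals beside -0.39 for all arms. By zone the clusters had a median of -0.33 in the VZ beside -0.18 for all arms, and of 0.58 in the OSVZ beside 0.07. MiR-17-5p, their most abundant member, ran from 5731 to 16609 CPM in area 17 and from 4467 to 9261 CPM in area 18, a difference of 0.53 ± 0.36. MiR-20b-5p gave 0.60 ± 0.33 and miR-19a-3p gave 1.04 ± 0.53, with miR-19a-3p at 351 CPM in OSVZ_17int of set 1 and between 21.8 and 125.4 CPM in the other 9 libraries. The summed level of the clusters ran from 10827 to 32492 CPM in area 17 and from 9770 to 18565 CPM in area 18, and 2 area 17 libraries, VZ_17 and OSVZ_17int of set 2, lay inside the area 18 range.

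MiR-221-3p and miR-222-3p differed by 0.13 ± 0.41 and 0.24 ± 0.43. MiR-221-3p was at 38423 CPM in VZ_17 and 14706 CPM in VZ_18 of set 1 and at 10064 CPM and 24850 CPM in set 2, so the pairs lay on opposite sides of 0. Of the miR-15/16 family, 7 of 14 arms were above 0 and 7 below, with a median of -0.002. MiR-16-5p gave 0.10 ± 0.44 and miR-15b-5p gave -0.03 ± 0.39, both with intervals that reach close to 1 unit on either side. Of the let-7 family, 11 of 18 arms were above 0 and 7 below with a median of 0.07. Its member let-7i-5p, at 40.4 to 314 CPM in area 17 and 218.1 to 799 CPM in area 18, gave -1.10 ± 0.51, and let-7b-5p gave 0.67 ± 0.41. None of these 4 groups held a called arm.

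**Figure D5:**
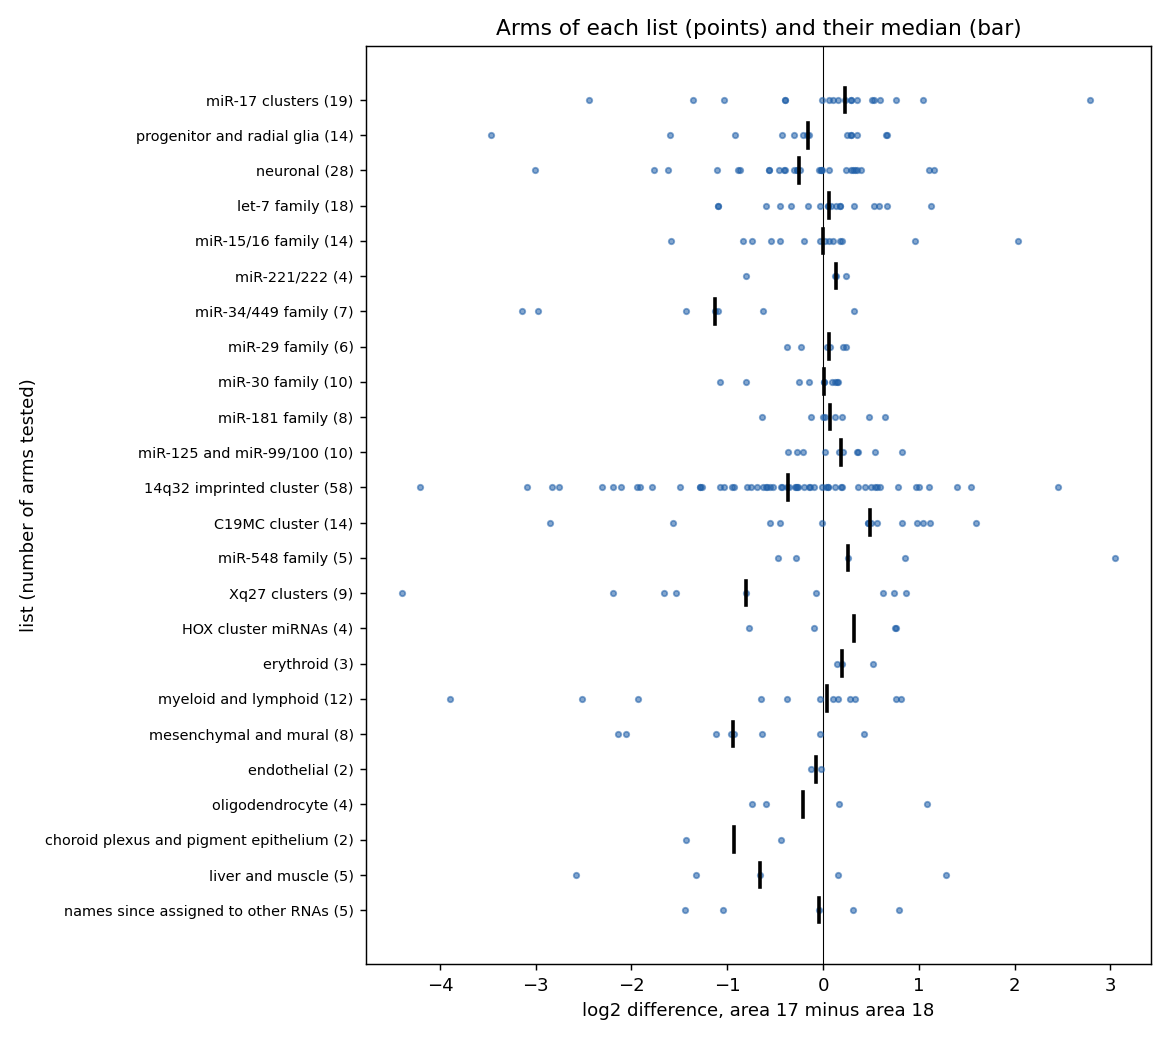
Differences between areas by group of microRNAs, area 17 minus area 18 on the log2 scale: each point is 1 tested arm, and the bar is the group's median. Most medians lie near that of all 724 arms (-0.04). Medians are about -1 for the miR-34 and miR-449 family, the mesenchymal and mural arms and the choroid plexus arms, from 7, 8 and 2 arms. The Xq27 clusters have a median of -0.80 from 9 arms, and the liver and muscle arms -0.66 from 5.

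Neuronal microRNAs were tested in 28 arms, 9 above 0 and 19 below, with a median of -0.26 and 0 called. MiR-138-5p ran from 187 to 498 CPM in area 17 and from 220 to 572 CPM in area 18, at -0.40 ± 0.31, and miR-137-3p gave -0.89 ± 0.71. MiR-149-5p, the most abundant arm of this list, gave 0.36 ± 0.37. The summed level of the list ran from 36490 to 67675 CPM in area 17 and from 29748 to 53022 CPM in area 18. The medians of this sum were 47751 CPM and 37722 CPM. Most of the sum was miR-149-5p alone. This arm held 62840 of 67675 CPM in VZ_17 of set 2, the highest sum. In VZ_18 of set 1, the lowest sum, it held 24567 of 29748 CPM. The sum therefore says little about the other arms of the list. The imprinted cluster known from human 14q32, many of whose members act in neurons, gave 19 arms above 0 and 39 below of 58 tested. Its median was -0.36 beside -0.04 for all tested arms. By zone the median was -0.89 in the VZ beside -0.18 for all arms, and -0.08 in the OSVZ beside 0.07. At an unadjusted p under 0.05 by the edgeR test there was 1 arm of the cluster, miR-431-3p. MiR-431-3p was at 69.5 CPM in VZ_18 of set 1 and at 0 to 11.9 CPM in the other 9 libraries. A more abundant arm of the cluster, miR-376c-3p, gave -0.75 ± 0.38. The placental cluster C19MC had 14 of its 48 listed arms tested, with a median of 0.49, 9 above 0 and 5 below, all at means of 30.4 CPM or less.

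Markers of cells that a germinal piece could hold besides neural cells were also compared. Of the 8 tested mesenchymal and mural arms, 7 were below 0 with a median of -0.94, and 0 were called. MiR-143-3p, of smooth muscle and pericytes, ran from 15.01 to 195 CPM in area 17 and from 97.8 to 179 CPM in area 18, at -1.12 ± 0.52, but miR-145-5p, from the same transcript and the most abundant arm of the list, gave 0.42 ± 0.42. The summed level of the list ran from 1511 to 5121 CPM in area 17 and from 968 to 2678 CPM in area 18, with medians of 1916 CPM and 2044 CPM. The highest sum was that of OSVZ_17int of set 1. Of the endothelial arms, miR-126-3p gave -0.03 ± 0.30. Erythroid arms, whose sum ran from 20.1 to 137.4 CPM in area 17 and from 30.7 to 334 CPM in area 18, were highest in VZ_18 of set 1, where miR-451-5p was at 193 CPM. Myeloid and lymphoid arms were 6 above 0 and 6 below, with a median of 0.04. The part of these cell types in the area values was not tested.

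The area difference in the germinal zones was also tested against that in the CP, with 2 libraries per area there. Of 696 arms, 0 were called (0%), with 21 at an unadjusted p under 0.05 and a smallest adjusted p of 0.997 by the edgeR test, and 0 were called by DESeq2. For miR-652-3p the germinal difference minus the CP difference was -2.85 ± 1.07, and for miR-125b-5p it was 0.25 ± 0.73. With a median SE of 0.93 over 377 arms, 0 intervals lay within 1 unit of 0, so for no arm do these libraries bound the germinal against CP difference to under 2-fold.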

How the data were processed

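Small RNA libraries for the SOLiD platform were made after size selection, per the labels' protocols. The authors deposited raw read counts per microRNA name, with the 5p and 3p arms in separate columns, and the aligner, genome build and annotation are not given in the sources used here. How reads that match several family members were counted is likewise not given, so arms of near-identical members may share reads. Columns were assigned to sets by their region names and spelling. A further 12 value columns matched no label and were not used, and the third labelled set is not analysed here.

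Of 861 names in set 1 and 868 in set 2, the 828 in both gave 1656 arms, of which filterByExpr by area kept 724 and removed 932. TMM set the scale, and the counts were fitted with edgeR 4.0.16 in R 4.3.3, with zone and set as blocks (6 residual degrees of freedom), and p-values were adjusted over all tested arms by the Benjamini-Hochberg method. Within-zone and interaction contrasts came from 1 model of area-by-zone means and set. The CP contrast used 14 libraries. Of 45 pairs of libraries, 0 held identical counts. DESeq2 1.42.0 and limma 3.58.1 were alternatives. The scripts were tested on simulated data.

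Set was kept as a block because the labels give each set its own embryonic day and the deposited tables are separate. Deviations of libraries of the same set correlated over 10 pairs of regions, with a median r of 0.510 (0.218 to 0.720, across arms, which are not independent).

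Arms are named by rule from those of at least 10 CPM: the 8 of each direction with the smallest p where fewer than 5 are called, up to 3 per list, the 5 most abundant, and up to 3 per within-zone contrast. Arms named outside it are said to be, or appear as members of a count or a list. The comparison and the lists were chosen with earlier results of these data known. Standard errors come from the spread between libraries, and reads that PCR has copied, with no molecular identifiers, do not count molecules one by one.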

Additional observations from a re-analysis of the deposited data

Results flagged for a closer look

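In area 17, miR-374b-5p was at 44.4 CPM in VZ_17 of set 2, with the other 5 libraries up to 1601 CPM. Gaps were taken on the log2 scale of CPM with 0.5 added. There, the gap of this library to the next was 0.714 of the range of the group, which marked it as far from the others. Likewise, miR-3173-5p in area 17 was at 36.3 CPM in OSVZ_17ext of set 2, with a highest value of 99.7 CPM. Its gap was 0.646 of the range on the log2 scale. Of 56 groups of libraries examined for 28 arms, these 2 were marked, and chance marks about 1 in 20.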

How the results depend on the processing

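Across the germinal zones the count of called arms was 0 under the alternatives run, except for 1 with DESeq2 and 4 with set 2 alone, and it was 0 to 0 when each library was left out in turn. In the VZ, where the count was 1, it was 15 with DESeq2, 5 with no filter, 2 with a robust prior (added after seeing the data), and 0 with limma voom, with the outer sublayer alone, and without VZ_17 of set 2 and VZ_18 of set 1 together (added after seeing the data). Leaving out single libraries gave 0 to 11 there, with 11 without VZ_17 of set 1 and 2 without VZ_18 of set 2. Without the set as a block the VZ count was 0 (smallest adjusted p 0.422), and the block changed no other count. DESeq2 gave 2 for the difference between zones. The counts for the OSVZ and for germinal zones against CP were 0 in every alternative run. Direction was reversed for miR-92b-3p with library totals (-0.014) and for miR-9-5p in set 1 alone (0.45). Over 34 results for single arms, 895 of 915 alternative values kept direction and side of the threshold. With library totals, the medians moved to -0.46 for progenitor and -0.57 for neuronal arms, and without the block to 0.11 for progenitor arms. Beyond the fewer libraries or arms that some settings hold, the cause of these changes was not tested. The spread between libraries limits the precision: 80 of 395 arms had an interval within 1 log2 unit of 0 across the germinal zones.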
